A study of Mus musculus with 24 samples.

Results

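The genes described here encode enzymes of phosphatidylcholine, phosphatidylethanolamine and phosphatidate metabolism and a lysophospholipid transporter, measured in mouse liver over a circadian cycle. They are 10 genes chosen by name, Chka, Chkb, Pcyt1a, Pemt, Etnk1, Pcyt2, Agpat2, Lpin1, Lpin2 and Mfsd2a, out of 19935 genes that had a probe set listed under a single symbol. Of these names 9, all but Chkb, matched such a probe set, with 1 probe set each, and no filter on low values was applied. The only probe set for Chkb is listed under Chkb and Gm44502 together, so it is given below as a shared probe set and was not tested. The names were chosen with values of these same arrays in view, so the members' fits and calls are a description of these 24 arrays.

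The samples were livers of adult male C57BL/6 mice, kept with food always available, entrained to 12 h of light and 12 h of dim red light and then moved to constant dim red light. Livers were collected every 3 h on the second cycle, at circadian times CT00, CT03, CT06, CT09, CT12, CT15, CT18 and CT21, where CT00 to CT12 is the subjective day, the rest phase of a mouse. There were 3 biological replicates per time, each a separate RNA extract on its own Affymetrix mouse Gene ST1.0 array, 24 arrays in all; the harvest protocol speaks of 4 mice, and the series' description of 4 time points. All groups shared strain, sex, lighting and feeding, no mutant or treated group was included, and each time was sampled over a single cycle.

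The deposited values were centred on each probe set's median over the 24 arrays, so 0 is a gene's own middle value, levels cannot be compared between genes, and the labelled tissue could not be checked by the level of hepatocyte genes. They are taken here as log2, which is an assumption, and log values of another base would change every fold given below. The interquartile range over all probe sets ran from 0.0992 to 0.200 on the arrays, widest for CT21 replicate 3. The phase of the livers followed the known order of the core clock: in the fitted 24 h wave Arntl peaked at 22.7 h with a peak-to-trough ratio of 5.20-fold, Nr1d1 at 7.29 h with 10.3-fold, Dbp at 10.1 h with 7.73-fold and Per2 at 15.2 h with 2.50-fold. In bulk liver, fewer cells of a type and less RNA per cell cannot be told apart. Of 30 cell type markers tested, 3 had an adjusted p under 0.05 in the 24 h fit, a share below the 13.8% of all genes. The 3 were Cyp2e1 of hepatocytes, Pdgfrb of stellate cells and Sox9 of bile ducts.

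Phosphatidylcholine is made in the liver by 2 routes. In the CDP-choline route, choline kinase (Chka, Chkb) phosphorylates choline, CTP:phosphocholine cytidyltransferase (Pcyt1a) makes CDP-choline in the step that usually limits the rate, and the headgroup is then joined to diacylglycerol. In the other, which is characteristic of hepatocytes, Pemt methylates phosphatidylethanolamine, which itself is made in part from ethanolamine through Etnk1 and Pcyt2. The diacylglycerol for both comes from phosphatidate, made by acyltransferases such as Agpat2 and dephosphorylated by the lipins. Lipin 1 also acts in the nucleus as a transcriptional coactivator, and its loss causes fatty liver and lipodystrophy in the fld mouse. Mfsd2a is a sodium-dependent carrier that takes up lysophosphatidylcholine, known for carrying docosahexaenoic acid across the blood-brain barrier, and it is induced in the fasted mouse liver.

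The promoter windows of the 4 members that swung most are shown because these genes fell into opposite phases. Each window is the 250 bases before an annotated transcript start, 5′ to 3′ on the gene's strand, from RefSeq on GRCm38.p6, with any motif match in capitals. The Chka window lies at chr19:3851523-3851772 on the plus strand, the Lpin1 window at chr12:16610967-16611216 on the minus strand, the Lpin2 window at chr17:71183282-71183531 on the plus strand and the Mfsd2a window at chr4:122961189-122961438 on the minus strand. The Chka and Lpin1 windows precede starts inside the annotated loci, and the Mfsd2a window overlaps the end of its locus. Lpin2 has 3 windows, of which the one with a motif match is shown.
Chka: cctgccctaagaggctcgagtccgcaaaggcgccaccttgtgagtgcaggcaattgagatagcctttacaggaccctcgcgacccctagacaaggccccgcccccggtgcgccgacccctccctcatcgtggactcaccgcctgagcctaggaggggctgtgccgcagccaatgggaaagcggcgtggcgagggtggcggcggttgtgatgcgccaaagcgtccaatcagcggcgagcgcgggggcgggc
Lpin1: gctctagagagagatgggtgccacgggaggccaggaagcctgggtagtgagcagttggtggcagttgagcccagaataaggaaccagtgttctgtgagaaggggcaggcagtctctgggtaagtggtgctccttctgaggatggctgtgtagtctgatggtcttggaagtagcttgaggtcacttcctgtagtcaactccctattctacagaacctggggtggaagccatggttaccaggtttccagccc
Lpin2: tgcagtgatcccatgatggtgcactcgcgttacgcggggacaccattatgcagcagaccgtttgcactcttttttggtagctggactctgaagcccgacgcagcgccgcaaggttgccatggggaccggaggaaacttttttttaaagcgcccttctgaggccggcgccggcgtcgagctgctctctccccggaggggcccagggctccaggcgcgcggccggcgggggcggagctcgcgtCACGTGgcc
Mfsd2a: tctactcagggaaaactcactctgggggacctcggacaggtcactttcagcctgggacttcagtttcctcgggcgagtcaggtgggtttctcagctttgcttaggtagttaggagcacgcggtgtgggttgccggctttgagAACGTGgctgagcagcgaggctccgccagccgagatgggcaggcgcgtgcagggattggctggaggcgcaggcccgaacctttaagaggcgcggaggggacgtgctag

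A set of 5 motifs was searched on both strands. These were the E-box CACGTG, bound by clock factors and many other basic helix-loop-helix proteins, which 6.02% of 32851 promoter windows held, and the related CACGTT, held by 3.85%. The others were TTANGTAA, the D-box bound by PAR bZIP factors such as Dbp, in 2.06%, TAGGTCA, the core of the element bound by ROR and REV-ERB receptors, in 2.23%, and TGACGTCA, the cAMP response element, in 1.55%. RefSeq windows were found for 9 of the 10 members, 14 windows in all, and 2 of the 14 held a match. The share of all windows that held any of the 5 was not counted, so 2 of 14 is not a result about the members. The first Lpin2 window held CACGTG at positions -9 to -4 from the start, and the Mfsd2a window held AACGTG, the reverse complement of CACGTT, at positions -108 to -103. The Chka and Lpin1 windows held none of the 5. A match describes letters in a window and is neither a measured binding site nor a cause.

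In the 24 h fit, 6 of the 9 measured members had an adjusted p under 0.05, against 13.8% of all genes, a share that is printed for scale since the members were chosen on these arrays. These were Chka, Pcyt1a, Agpat2, Lpin1, Lpin2 and Mfsd2a. The median amplitude, which is the height of the fitted wave above its middle, was 0.31 on the log2 scale over the 9 members and 0.05 over all genes. The test that the 8 time means are equal, which allows any shape, called 5 members, all of these but Pcyt1a, against 10.9% of all genes. A 12 h component was called for Agpat2, 1 member, against 0.577% of all genes. The fitted waves of Chka and Agpat2 peaked near subjective dawn, and those of Lpin1, Lpin2 and Mfsd2a near subjective dusk. The highest time mean of Agpat2 was at CT18.

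**Figure D1:**
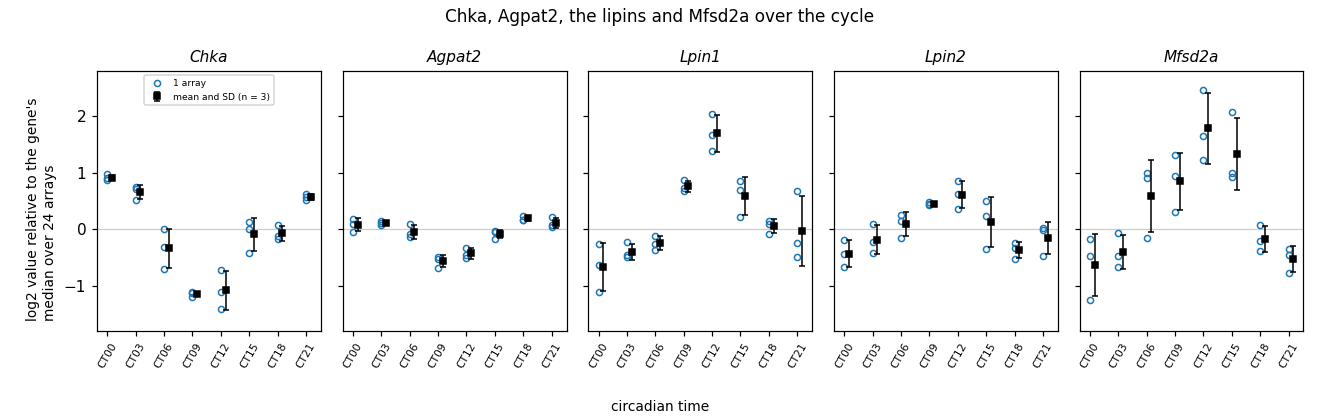
Log2 value relative to each gene's own median over 24 arrays (vertical axis) at 8 circadian times (horizontal axis) for Chka, Agpat2, Lpin1, Lpin2 and Mfsd2a. Open circles are single arrays and black squares with bars are means and SD of 3 arrays; Chka is lowest at CT09, where Lpin1, Lpin2 and Mfsd2a are above their medians on all 3 arrays.

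Chka, at chr19:3851585-3894369 (RefSeq, GRCm38.p6), encodes choline kinase alpha, and was highest at subjective dawn. On the log2 scale, relative to its median over 24 arrays, Chka measured 0.90, 0.97 and 0.87 on the 3 arrays of CT00, 0.75, 0.71 and 0.51 at CT03, -0.31, -0.01 and -0.71 at CT06, and -1.20, -1.13 and -1.12 at CT09. It then measured -1.11, -0.72 and -1.41 at CT12, 0.13, 0.01 and -0.42 at CT15, -0.13, -0.17 and 0.07 at CT18, and 0.62, 0.51 and 0.57 at CT21. All arrays of CT21, CT00 and CT03 lay above all other arrays, and the 6 arrays of CT09 and CT12 lay below every array of CT06, so the groups at the top and the bottom did not overlap. The means were 0.91 ± 0.05 at CT00 and -1.15 ± 0.04 at CT09 (SD, n = 3 each), a difference of 2.06, or 4.17-fold.

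The fitted Chka wave had an amplitude of 0.96 ± 0.08 (SE, log2), a peak at 23.0 ± 0.33 h and a peak-to-trough ratio of 3.81-fold (95% interval 3.04 to 4.78). The adjusted p was 3.18e-08 in the 24 h fit and 3.83e-08 for equality of the 8 times (limma), and the wave accounted for 84.5% of the variation between arrays, the 8 time means for 94.4%. Its amplitude ranked 12 of 19935 genes. In the order of the time means, CT00, CT03, CT21, CT18, CT15, CT06, CT12, CT09, the arrays of neighbouring times separated at CT00 from CT03, at CT21 from CT18 and at CT06 from CT12, and overlapped elsewhere. The rise after the CT12 low was uneven: the mean was -0.10 ± 0.29 at CT15 and -0.08 ± 0.13 at CT18 (SD, n = 3 each), a plateau before the value of 0.57 at CT21. A 12 h component of amplitude 0.29 ± 0.06 (SE) had an adjusted p of 0.0574, just over the threshold.

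The shared Chkb and Gm44502 probe set, where Chkb is choline kinase beta, changed far less. Its log2 values relative to its median were 0.12, 0.22 and 0.36 at CT06, the time of the highest mean, and -0.32, -0.38 and -0.11 at CT18, the time of the lowest. On the 18 arrays of the other 6 times it ran from -0.16 to 0.15. A fitted wave peaked at 4.76 h with a ratio of 1.24-fold, and no test was made because the signals of both genes cannot be separated.

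Pcyt1a, at chr16:32430921-32475065, had a small wave with a peak in the early subjective night. Its log2 values were 0.01, -0.08 and -0.11 at CT00, -0.01, -0.09 and -0.08 at CT03, -0.04, -0.06 and 0.07 at CT06, and -0.04, -0.06 and 0.01 at CT09. They were 0.08, 0.25 and 0.25 at CT12, -0.08, 0.24 and 0.20 at CT15, 0.08, -0.01 and 0.15 at CT18, and 0.03, 0.07 and -0.21 at CT21. The arrays of CT12 lay above every array of CT00 to CT09, and the arrays of every pair of neighbours in the order of the means overlapped. The fitted wave had an amplitude of 0.11 ± 0.03 (SE, log2), a peak at 13.9 ± 0.99 h and a ratio of 1.16-fold (95% interval 1.08 to 1.25). Its adjusted p was 0.0268 in the 24 h fit and 0.166 for equality of the 8 times (limma). The call rested on single arrays: without CT12 replicate 2 or 3, or CT15 replicate 2 or 3, the adjusted p was 0.062, 0.0633, 0.0632 and 0.0591 in that order.

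Pemt, at chr11:59970614-60046561, showed no rhythm past the threshold. The fitted amplitude was 0.02 ± 0.02 (SE, log2), with an upper 95% bound on the peak-to-trough ratio of 1.10-fold and an adjusted p of 0.869 (limma). Its 24 arrays lay between -0.14 and 0.20 on the log2 scale, and the highest mean, at CT15, exceeded the lowest, at CT00, by 0.15. In the equality test its adjusted p was 0.403. The bound holds for a 24 h wave only and not for other shapes: the highest mean was 1.11-fold over the lowest. The wave accounted for 4.53% of the variation and the 8 means for 44.7%. The missing calls do not show that Pemt was constant.

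Of the members in the ethanolamine branch, neither Etnk1 nor Pcyt2 passed the threshold. This covers only these members: Etnk2 matched no probe set, and Selenoi, listed with the later steps, was called in the 24 h fit. Etnk1, ethanolamine kinase, at chr6:143166866-143208546, had an amplitude of 0.04 ± 0.04 (SE, log2), an upper 95% bound of 1.19-fold on the ratio and an adjusted p of 0.855 (limma). Its arrays ran from -0.35 at CT18 to 0.32 at CT15, and every time overlapped its neighbours in the order of the means. Pcyt2, CTP:phosphoethanolamine cytidyltransferase, at chr11:120610062-120617947, measured 0.35, 0.22 and -0.00 at CT03 and 0.30, 0.45 and -0.06 at CT06, its time of highest mean. At CT18, the lowest, it measured -0.10, -0.16 and -0.07. The arrays of CT03 lay above those of CT18, while at CT06 replicate 3 lay just above the highest array of CT18. The fitted Pcyt2 amplitude was 0.12 ± 0.04 with a ratio of 1.17-fold (95% interval 1.05 to 1.32), and the adjusted p was 0.176, or 0.0385 before adjustment. Without CT15 replicate 1 its adjusted p was 0.0266, and without all of CT15 it was 0.0226.

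**Figure D2:**
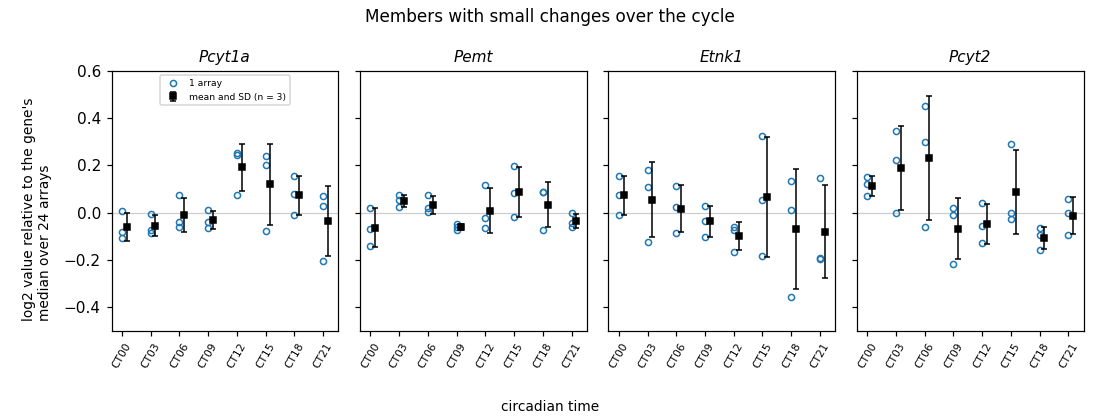
Log2 value relative to each gene's own median over 24 arrays (vertical axis, on a narrower scale than for the strongly changing genes) at 8 circadian times (horizontal axis) for Pcyt1a, Pemt, Etnk1 and Pcyt2. Circles are single arrays and squares with bars are means and SD of 3 arrays; every array lies within -0.35 and 0.45, and Pcyt1a is highest at CT12.

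Agpat2, at chr2:26593057-26604417, which acylates lysophosphatidate to phosphatidate, had its low times in common with Chka and changed less. Its fitted peak was on the dawn side, but its highest time mean was at CT18. Its log2 values were 0.18, 0.09 and -0.05 at CT00, 0.14, 0.07 and 0.11 at CT03, -0.09, 0.09 and -0.15 at CT06, and -0.52, -0.49 and -0.68 at CT09. They were -0.46, -0.33 and -0.51 at CT12, -0.17, -0.03 and -0.06 at CT15, 0.17, 0.23 and 0.16 at CT18, and 0.21, 0.07 and 0.03 at CT21. The 6 arrays of CT09 and CT12 lay below all 18 others, and those 18 spanned -0.17 to 0.23. The means were 0.19 ± 0.04 at CT18 and -0.56 ± 0.10 at CT09 (SD, n = 3 each), a difference of 0.75, or 1.69-fold.

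The fitted Agpat2 wave had an amplitude of 0.31 ± 0.04 (SE, log2), a peak at 22.2 ± 0.52 h and a ratio of 1.54-fold (95% interval 1.37 to 1.73), with an adjusted p of 3.61e-05 (limma). The equality test gave 1.35e-06. Its time course was a dip rather than a smooth wave: the 24 h wave accounted for 69.4% of the variation and the 8 means for 92.4%, and a 12 h component of amplitude 0.17 ± 0.03 had an adjusted p of 0.00831, or 0.0875 without the 4 arrays of widest spread. The dip at CT09 and CT12 fell where Chka was lowest, and the Pearson correlation of the 8 time means of both genes was 0.86, a description over means from the same arrays. Markers of endothelium (5 of 5 tested) and bile duct (4 of 4) averaged lowest at CT09, -0.18, and at CT12, -0.15, and highest at CT00, 0.09 and 0.14. Kupffer and stellate cell markers were also lowest at CT09, -0.08, and at CT12, -0.12. Hepatocyte markers were instead highest at CT12, 0.04, and adipocyte markers at CT09, 0.08. The red blood cell marker was lowest at CT00, -0.06. The 24 h fit called 0 of the 5 endothelial and 1 of the 4 bile duct markers. The part of cell types in the Chka and Agpat2 courses was not tested.

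Lpin1, at chr12:16535669-16653903, encodes lipin 1, a phosphatidate phosphatase, and was highest at subjective dusk. Its log2 values were -1.12, -0.63 and -0.27 at CT00, -0.24, -0.50 and -0.46 at CT03, -0.37, -0.12 and -0.26 at CT06, and 0.73, 0.67 and 0.86 at CT09. They were 2.04, 1.67 and 1.38 at CT12, 0.85, 0.22 and 0.70 at CT15, 0.09, 0.15 and -0.09 at CT18, and -0.50, -0.25 and 0.67 at CT21. All 3 arrays of CT12 lay above every other array, and every array of CT09 and CT15 was above all arrays of CT00 to CT06 and CT18. CT21 replicate 3, at 0.67, stood far from the other 2 arrays of its time, and it is also the array of widest spread over all probe sets.

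The Lpin1 means were 1.70 ± 0.33 at CT12 and -0.67 ± 0.43 at CT00 (SD, n = 3 each), a difference of 2.37, or 5.17-fold. The fitted wave had an amplitude of 0.91 ± 0.12 (SE, log2), a peak at 12.5 ± 0.48 h and a ratio of 3.54-fold (95% interval 2.59 to 4.85). Its adjusted p was 1.28e-05 in the 24 h fit and 1.15e-05 in the equality test (limma), and the amplitude ranked 15 of 19935 genes. The wave left part of the sharp CT12 peak unfitted: it accounted for 71.5% of the variation, against 87.9% for the 8 means. Without CT21 replicate 3 the ratio was 3.86-fold, and without all of CT12 it was 2.59-fold with an adjusted p of 0.000514. In the order CT12, CT09, CT15, CT18, CT21, CT06, CT03, CT00, neighbours did not overlap at CT12 from CT09 and at CT15 from CT18.

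Lpin2, at chr17:71183532-71249818, encodes lipin 2, a phosphatidate phosphatase abundant in liver. Like Lpin1 it had its highest mean at CT12 and its lowest at CT00, with a smaller amplitude. Its log2 values were -0.68, -0.44 and -0.20 at CT00, 0.09, -0.42 and -0.22 at CT03, -0.15, 0.14 and 0.26 at CT06, and 0.44, 0.43 and 0.48 at CT09. They were 0.62, 0.36 and 0.84 at CT12, 0.24, -0.35 and 0.50 at CT15, -0.33, -0.53 and -0.25 at CT18, and -0.48, 0.02 and -0.02 at CT21. CT09 and CT12 lay above every array of CT00, CT03, CT06, CT18 and CT21, with CT15 spread across both ranges, and all neighbours in the order of the means overlapped. The means were 0.61 ± 0.24 at CT12 and -0.44 ± 0.24 at CT00 (SD, n = 3 each), 2.07-fold apart. The fitted wave had an amplitude of 0.46 ± 0.07 (SE, log2), a peak at 10.6 ± 0.60 h, a ratio of 1.88-fold (95% interval 1.55 to 2.29) and an adjusted p of 0.000188 (limma). The equality test gave 0.0033. The courses of Lpin2 and Lpin1 differed at CT06, with means of 0.08 and -0.25, and at CT18, with means of -0.37 and 0.05.

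Mfsd2a, at chr4:122946850-122961194, the lysophosphatidylcholine carrier, had the largest amplitude of the 9 members and ranked 7 of 19935 genes, and it also varied most between arrays of the same time. Its log2 values were -1.25, -0.48 and -0.18 at CT00, -0.07, -0.67 and -0.48 at CT03, -0.15, 1.00 and 0.91 at CT06, and 1.30, 0.30 and 0.94 at CT09. They were 1.65, 1.23 and 2.47 at CT12, 2.07, 0.92 and 1.00 at CT15, -0.39, 0.07 and -0.21 at CT18, and -0.78, -0.46 and -0.35 at CT21. All arrays of CT09, CT12 and CT15 lay above all arrays of CT00, CT03, CT18 and CT21, while those of CT06 fell on both sides. The means were 1.78 ± 0.63 at CT12 and -0.64 ± 0.55 at CT00 (SD, n = 3 each), a difference of 2.42, or 5.34-fold.

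The fitted Mfsd2a wave had an amplitude of 1.16 ± 0.14 (SE, log2), a peak at 11.6 ± 0.45 h and a ratio of 5.00-fold (95% interval 3.46 to 7.23). Its adjusted p was 3.72e-06 in the 24 h fit and 0.000221 in the equality test (limma). The median SD between arrays of the same time was 0.53, so all neighbouring times in the order CT12, CT15, CT09, CT06, CT18, CT03, CT21, CT00 overlapped although the top and bottom did not. The 95% interval of the ratio was accordingly the widest among the members.

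**Figure D3:**
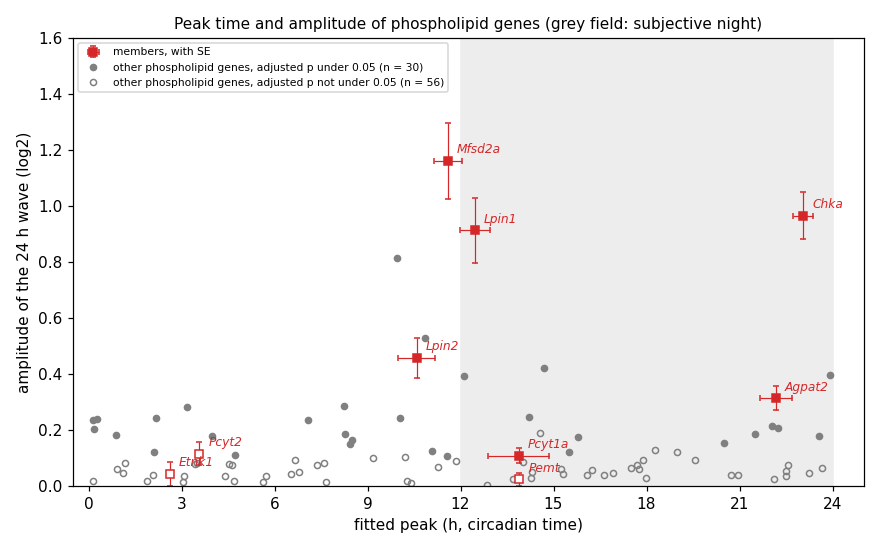
Fitted peak (horizontal axis, h of circadian time) against the amplitude of the 24 h wave (vertical axis, log2) for the 9 measured members (red squares with SE, filled where the adjusted p is under 0.05) and 86 other phospholipid genes (grey, filled for the 30 with an adjusted p under 0.05); the grey field is the subjective night. Mfsd2a, Lpin1 and Lpin2 lie between 10.6 and 12.5 h, and Chka and Agpat2 between 22.2 and 23.0 h.

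By fitted peak, the 5 strongly changing members thus fell into 2 groups of opposite phase. The time means of Lpin1 correlated with those of Lpin2 at 0.88 and with those of Mfsd2a at 0.87, and Lpin2 with Mfsd2a at 0.89 (Pearson's r over 8 time means, as a description of values that share arrays). Chka correlated with Lpin1, Lpin2 and Mfsd2a at -0.83, -0.89 and -0.84. The fitted peaks of Lpin2 and Lpin1, 10.6 ± 0.60 and 12.5 ± 0.48 h, and that of Mfsd2a between them, lie close together relative to the sampling step of 3 h.

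The order of the 3 arrays within each time was compared for the dusk genes, as a description with no test. Of the 8 times, the array with the lowest Mfsd2a was also the lowest in Lpin1 at 6 and in Lpin2 at 7, while the highest Mfsd2a array was also the highest in Lpin1 at 6 and in Lpin2 at 3. Lpin1 and Lpin2 shared the lowest array at 6 times and the highest at 3. The 3 arrays stood in the same order at 5 times for Lpin1 and Mfsd2a and at 3 for each of the other pairs. At CT00, where replicate 1 was lowest in all 3 genes and replicate 3 highest, Nr1d1 measured -1.71, -0.78 and -0.17 and Dbp -1.94, -0.64 and -0.04 on replicates 1 to 3, in the same order, while Arntl measured 0.82, 0.76 and 0.70. CT00 is named because the orders matched there, and they did not match at every time. At CT12 Lpin1 measured 2.04, 1.67 and 1.38 where Dbp measured 1.31, 1.12 and 1.61, and at CT15 Mfsd2a measured 2.07, 0.92 and 1.00 where Dbp measured 0.04, 0.10 and 0.27. The part of the livers' clock phase in the spread of Lpin1, Lpin2 and Mfsd2a was not tested. Without all of CT00, the ratios were 3.57-fold for Lpin1, 1.86-fold for Lpin2 and 5.49-fold for Mfsd2a. Chka and Etnk1, of which Etnk1 had no called rhythm, stood in the same array order at 6 of the 8 times. This pair is named because its count was the highest among all pairs of members.

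**Figure D4:**
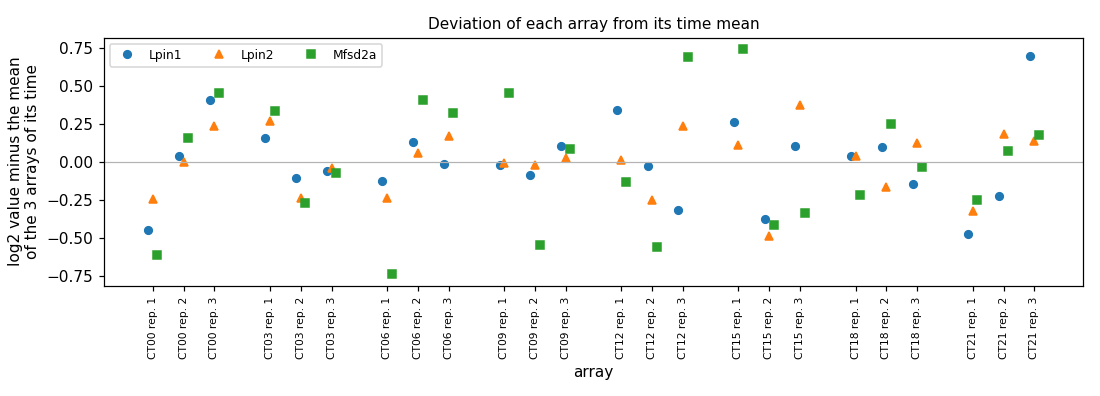
Deviation of each of the 24 arrays from the mean of its time (vertical axis, log2) for Lpin1 (circles), Lpin2 (triangles) and Mfsd2a (squares), with arrays in order of time and replicate (horizontal axis). At CT00 replicate 1 is lowest and replicate 3 highest in all 3 genes, and Lpin1 of CT21 replicate 3 lies furthest above its time mean among the Lpin1 values.

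Genes outside the member list with the closest time course were named by Pearson's r over the 8 time means. For Chka they were Tubb2a at 0.992, Arntl at 0.982 and Car14 at 0.977, and Arntl encodes the clock activator BMAL1. For Agpat2 they were Polr3k, Mpst and Jmjd8, at 0.989, 0.989 and 0.983. For Lpin1 they were Foxo1 at 0.980, Klf13 at 0.969 and Jph1 at 0.962. For Lpin2 they were Tas2r102 at 0.988, Narf at 0.973 and Slc38a2 at 0.970, and Tas2r102 had a fitted amplitude of 0.02 on the log2 scale, so likeness of shape was not likeness of size. For Mfsd2a they were Mpp5, Gab1 and Tmed5, at 0.990, 0.987 and 0.985. For Pcyt1a they were Clybl, Sar1a and Crebl2, at 0.984, 0.977 and 0.976. These are the highest of 19935 values of r over 8 points each and are given as a description.

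The other genes of the same pathways were listed by role. Of 90 listed genes 86 were tested, and 30 of them (34.9%) had an adjusted p under 0.05 in the 24 h fit, against 13.8% of all genes. Of these, 19 peaked between CT00 and CT12 and 11 later, against 1598 and 1160 of all called genes. The shares are for scale, since the lists were made with earlier results known. In the CDP-diacylglycerol branch (1 of 8, 12.5%) and among lysophospholipid acyltransferases (1 of 9, 11.1%) the share was close to that of all genes. Of phosphatidylserine synthesis and decarboxylation 0 of 3 genes were called, and these lists are small. The equality test called 27, against 10.9% of all genes, and the 12 h component 1, Pnpla6, against 0.577% of all genes. Their median ratio was 1.12-fold, against 1.07-fold over all genes, and 5 of the called genes reached 1.5-fold. The remaining 4 of the 90 listed genes were not analysed here.

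**Figure D5:**
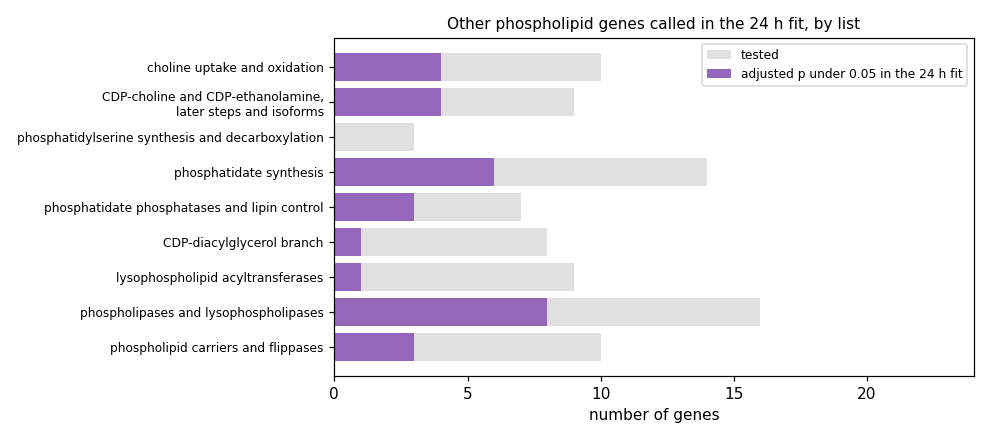
Number of other phospholipid genes (horizontal axis) tested (grey) and with an adjusted p under 0.05 in the 24 h fit (purple) in each of 9 lists by role. The phospholipases hold the most called genes, 8 of 16, and phosphatidylserine synthesis holds 0 of 3.

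Around the choline branch, 4 of 10 genes of choline uptake and oxidation were called. Slc44a1, a choline transporter-like protein, peaked at 23.9 h with a ratio of 1.73-fold (adjusted p 2.91e-05), within 1 h of the Chka peak. This is an average of 2 probe sets that peaked at 0.523 h and at 23.5 h, the first of them more than 1 h after Chka. Dmgdh, dimethylglycine dehydrogenase, peaked at 2.13 h with 1.18-fold (0.000661). Bhmt, betaine-homocysteine methyltransferase, had 1.33-fold (0.00157), with 3 probe sets that differed, peaking near CT21, at 1.28 h and at 1.25 h. Among later steps and byproducts of the CDP routes 4 of 9 were called, led by Gpcpd1, a glycerophosphocholine phosphodiesterase, at 3.10-fold and 9.96 h (3.72e-06). Gpcpd1 averaged 1.22 ± 0.23 at CT12 and -0.46 ± 0.37 at CT00 (SD, n = 3 each, log2 relative to its median), the same extremes as Lpin1, Lpin2 and Mfsd2a. Gde1, a glycerophosphodiester phosphodiesterase, had 1.79-fold at 14.7 h (1.34e-06) and Phospho1, a phosphatase of phosphocholine and phosphoethanolamine, 1.48-fold at 3.18 h (9.56e-06). The other called gene of this list was Selenoi, with 1.39-fold at 0.274 h (1.35e-05).

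Around the phosphatidate steps, 6 of 14 genes of phosphatidate synthesis were called. Dgkd, a diacylglycerol kinase, had 1.26-fold at 8.51 h (adjusted p 0.000331), Agpat1, the other main acyltransferase of the Agpat2 step, 1.27-fold at 15.8 h (0.00053), and Gpat4, a glycerol-3-phosphate acyltransferase, 1.41-fold at 14.2 h (0.00154). Agpat1 and Agpat2 both had their highest time mean at CT18, while their lowest means were at CT06 for Agpat1 and at CT09 for Agpat2. Of other phosphatases and lipin control genes 3 of 7 were called, the lipid phosphate phosphatases Plpp3 at 1.39-fold and 7.08 h (0.00486), Plpp1 at 1.35-fold and 22.0 h (0.0169) and Plpp2 at 1.16-fold and 11.6 h (0.0412). In the CDP-diacylglycerol branch 1 of 8 was called, Ptpmt1, a phosphatase of cardiolipin synthesis, at 1.18-fold and 15.5 h (0.00997), while Pgs1 (0.0555) and Taz (0.0616) were just over the threshold. None of the 3 genes of phosphatidylserine synthesis and decarboxylation was called, Ptdss1 (0.0577), Ptdss2 (0.0841) and Pisd (0.33).

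Among enzymes that remodel or break down phospholipids, 1 of 9 lysophospholipid acyltransferases was called, Lclat1, which acts on lysocardiolipin, at 1.29-fold and 8.27 h (adjusted p 0.00123). Lclat1 had an adjusted p of 0.0588 in the equality test, which called 1 of the 9, Lpcat3 (0.0140), named because that count is 1. In the 24 h fit Lpcat1 (0.0632) and Lpcat4 (0.144) followed. Of 16 phospholipases and lysophospholipases 8 were called. Lipg, endothelial lipase, had 2.08-fold at 10.9 h (3.85e-08), Ddhd2, an intracellular phospholipase, 1.73-fold at 12.1 h (4.40e-07) and Pla2g12a, a secreted phospholipase, 1.40-fold at 10.1 h (5.52e-06). The peaks of these 3 lie within the range of those of Lpin2 and Lpin1, or within 1 h of it. The other called genes of this list did not share 1 phase. Pnpla7 peaked at 11.1 h and Pnpla8 at 8.45 h, but Pla2g12b peaked at 2.18 h, Pld1 at 0.895 h and Ddhd1 at 22.2 h. Of carriers and flippases 3 of 10 were called, Abcb4, which moves phosphatidylcholine into bile, at 1.48-fold and 8.25 h (7.12e-07), Atp8b1, a flippase of the bile canaliculus, at 1.28-fold and 23.6 h (0.000613) and Pctp, a phosphatidylcholine transfer protein, at 1.28-fold and 3.98 h (0.0343).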

How the data were processed

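The members and the gene lists were chosen with earlier results of these data known. RNA of 24 livers was hybridised to Affymetrix mouse Gene ST1.0 arrays with biotin label, per the labels' protocols. The deposited values, which range from -2.62 to 2.64, are taken as log2, although that range does not fix the base. The log base, background correction, summarisation and normalization were not given in the sources used here. In the deposited table each of 28815 probe sets has a median of 0 over the arrays. Platform annotation gave 21780 probe sets 1 symbol, 1605 several and 5430 none. Probe sets of a gene were averaged (998 genes had several), leaving 19935 genes. The number of arrays limits the precision.

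In R 4.3.3, limma 3.58.1 fitted a cosine and a sine of 24 h to all arrays, the 8 time means, and an added 12 h pair, with moderated F tests, Benjamini-Hochberg adjustment over all 19935 genes and a threshold of 0.05. SEs of amplitude and peak come from the delta method, and ratio intervals from a normal approximation. That approximation is rough for Pemt and Etnk1, whose amplitudes were about the size of their SEs. The fits were tested on simulated data. Named were all members, the 3 genes of each list with the smallest p in the 24 h fit, the 3 genes most alike to a member, and 4 clock genes. A few further called genes of the lists were named to complete a count. The symbol Taz was entered for tafazzin after the files were seen. Alternatives left out each array or time, used a replicate block, array weights, other scaling, moderation, probe set handling or a spread filter. Centred values hold no level, so no filter on dim genes was possible, and no slide or scan batch is recorded in the files used.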

Additional observations from a re-analysis of the deposited data

How the results depend on the processing

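Chka, Agpat2, Lpin1, Lpin2 and Mfsd2a kept their 24 h and 8-time calls in all 41 alternatives, and no result reversed. The 24 h counts ran from 1978 to 3076 of all genes (2758 as reported), from 5 to 7 members and from 26 to 34 other phospholipid genes. In the 8-time test, array weights raised the count of all genes to 4900 from 2167 as reported, and called Pcyt1a (adjusted p 0.0183) and Pcyt2 (0.0387). The 12 h component depended most on the setting, with 115 genes as reported, 64 after quantile normalization, 50 without moderation, 177 without the 20% of genes of smallest spread and 20 without the 4 arrays of widest spread, an alternative chosen after seeing the data. Its member count of 1 was 2 under the spread filter and 0 without those 4 arrays, and leaving out 1 array gave 47 to 188 genes and 1 to 2 members; the cause was not tested. Same-numbered arrays of different times had a median correlation of deviations of 0.149 over 84 pairs, with 54 over 0.1 and the lowest at -0.421. Other-numbered arrays had a lower median, -0.101 over 168 pairs. The numbers were not used to pair livers in the fits as reported, and an effect shared by replicate number was not tested. The replicate block gave 2984 genes and 6 members in the 24 h fit, 2664 and 5 in the 8-time test, and 168 and 2 in the 12 h fit, where Chka was added (0.0376). Chka also gained a 12 h call without CT06 replicate 2 (0.045), CT06 replicate 3 (0.0464) or CT12 replicate 3 (0.0295) and under the spread filter (0.0271). Without CT15 replicate 1 Pcyt1a passed the 8-time test (0.0311), as did Pcyt2 without CT06 replicate 3 (0.0271). Pcyt1a lost its 24 h call without CT00 (0.0694), CT03 (0.0769), CT06 (0.0507), CT12 (0.196) or CT18 (0.0541). Signal over background is unknown in centred values.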
